A study of Mus musculus with 4 samples.

Results

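The genes described here are 41 that act on DNA crosslinks and on the checkpoint that answers DNA damage, out of 27514 genes measured in all 4 libraries of the series. They were chosen by symbol and not by a cut on measured values, but earlier results of these data were known when they were chosen. All 41 were found in the gene lists of all 4 libraries. Their levels were followed in undifferentiated spermatogonia (A_undiff), the mouse germ cells that hold the spermatogonial stem cells, in control animals and during regeneration after busulfan. Busulfan (BU) is a bifunctional alkylating agent that crosslinks DNA.

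The source was adult C57BL/6J mice aged 6 to 8 weeks, either untreated (CTRL) or given a single dose of 10 mg/kg BU and taken at day 10. A_undiff were sorted as E-Cadherin+ α6-integrin+ c-KIT- cells, and single-cell libraries (10x Genomics, 3′ end) were made from cells pooled from 3 mice per library. Each of 2 independent experiments gave 1 CTRL and 1 BU library, named here CTRL 1 and BU 1 for the first and CTRL 2 and BU 2 for the second. Only cells that survived BU to day 10 and passed the sort are in the BU libraries, and because mice were pooled, the spread between animals was not measured.

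An interstrand crosslink blocks replication because the strands cannot be separated. In the Fanconi anaemia pathway a core complex, with the E2 enzyme UBE2T, monoubiquitinates the FANCD2 and FANCI pair, and USP1 removes that ubiquitin. Nucleases then unhook the crosslink, translesion polymerases copy past it, and homologous recombination restores the broken strand, while the kinases ATR, ATM, CHEK1 and CHEK2 hold the cell cycle. MGMT works apart from these: it removes alkyl groups from the O6 position of guanine in a direct reversal. Germ cells are known to need Fanconi genes, and mice lacking them have few germ cells.

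After keeping cells with over 1000 genes detected and under 20% mitochondrial UMIs (unique molecules counted), 7493 cells remained, with 3101 in CTRL 1, 2008 in BU 1, 1120 in CTRL 2 and 1264 in BU 2. The deposited libraries held between 21136369 and 53579969 UMIs, and the median of a kept cell was 8066 to 9858 UMIs in experiment 1 and 30931 to 34177 in experiment 2. Cells were sorted into classes by whether exactly 1 of Gfra1 (stem cell marker), Sox3 (progenitor marker) and Kit (differentiation marker) lay above a normalised level of 2, where the level is ln(1 + 100000 s) for a gene that takes a share s of the UMIs of a cell. Gfra1+ cells numbered 433 in CTRL 1, 729 in BU 1, 134 in CTRL 2 and 454 in BU 2. Sox3+ cells numbered 1299, 245, 552 and 128 in the same order, and Kit+ cells 10, 152, 15 and 53. The summed level of 9 stem markers ranged from 852 to 1161 CPM in Gfra1+ cells and from 95.7 to 268 in Sox3+ cells, and that of 6 progenitor markers from 40.98 to 92.6 and from 334 to 820. In Sox3+ cells the progenitor sum was 820 CPM in CTRL 1, 334 in BU 1, 690 in CTRL 2 and 338 in BU 2. The stem sum there was 101, 134, 95.7 and 268 CPM in that order. The marker levels of this class thus also differed between CTRL and BU. These lists include Gfra1 and Sox3, which defined the classes.

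Libraries CTRL 2 and BU 2 shared 677 deposited cell barcodes, against 11 shared by CTRL 1 and BU 1 and 0 by CTRL 1 and CTRL 2. Leaving out cells of either library whose barcode also occurs in the other one removed 225 kept cells of CTRL 2 and 523 of BU 2, among them 21 of 134 and 216 of 454 Gfra1+ cells. The main counts, medians and fits, and levels of members that did not overlap, are therefore also given without these cells, while the phase results include them. Levels without these cells were scaled over their own set of sums, which does not include Kit+ cells. Part of a change from the main level can therefore come from scaling. Sox3+ cells of BU 1, for example, numbered 245 in both settings. Transcripts of 9 spermatid genes were also present in the Gfra1+ sums, at 1468 CPM in CTRL 1, 653 in BU 1, 3770 in CTRL 2 and 1334 in BU 2, and were lower in BU in both experiments. In Sox3+ cells they stood at 1152, 378, 1607 and 660 CPM in that order. Refits on spermatogonial cells only are given for Mgmt and for the counts of calls. These cells had under 2% of UMIs from the spermatid genes and under 0.5% from 14 somatic marker genes. They also had a UMI of Zbtb16 or Sall4, which are spermatogonial markers. The part of the spermatid transcripts in the other results was not tested. The gene lists of the experiments differ, with 27998 genes in experiment 1 and 31053 in experiment 2, so ratios of BU over CTRL are also given within an experiment. The unblocked test and the counts of groups without overlap compare levels across the experiments.

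The upstream sequences of 4 members are shown because their genes carry the results below: Mgmt is the only member called in BU against CTRL by the test without a block or by that with one, Bard1 and Brca1 are recombination genes whose fitted values were higher, and Ube2t holds the most E2F matches with Fancm. Each run is the 250 bases before the transcript start in RefSeq (GRCm38.p6), written 5′ to 3′ on the gene's own strand, with capitals marking matches on either strand. The letters searched for the factor E2F were TTCGCGC and, as other forms of the same site, TTGGCGC and also, with another central part, TTCCCGC. For the CHR element they were TTTGAA or, with a change at the centre, TTCGAA instead. The third motif, which binds NF-Y, was CCAAT. The Mgmt run lies at chr7:136894336-136894585 on the plus strand, Bard1 at chr1:71102973-71103222 on the minus strand, Brca1 at chr11:101551956-101552205 on the minus strand and Ube2t at chr1:134962315-134962564 on the plus strand.
Mgmt: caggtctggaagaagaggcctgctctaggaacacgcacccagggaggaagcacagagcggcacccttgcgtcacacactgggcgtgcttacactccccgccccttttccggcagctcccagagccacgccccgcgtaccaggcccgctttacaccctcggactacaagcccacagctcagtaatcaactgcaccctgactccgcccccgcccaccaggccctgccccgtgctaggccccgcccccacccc
Bard1: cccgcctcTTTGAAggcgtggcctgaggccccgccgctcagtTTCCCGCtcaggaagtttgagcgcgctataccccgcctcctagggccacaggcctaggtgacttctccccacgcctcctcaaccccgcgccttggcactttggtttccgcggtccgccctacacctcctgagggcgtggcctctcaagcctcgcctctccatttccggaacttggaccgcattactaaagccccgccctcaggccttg
Brca1: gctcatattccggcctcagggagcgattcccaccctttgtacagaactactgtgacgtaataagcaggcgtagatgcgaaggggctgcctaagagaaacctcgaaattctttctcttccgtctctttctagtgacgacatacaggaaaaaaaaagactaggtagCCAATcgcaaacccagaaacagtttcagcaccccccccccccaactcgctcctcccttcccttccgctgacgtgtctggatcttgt
Ube2t: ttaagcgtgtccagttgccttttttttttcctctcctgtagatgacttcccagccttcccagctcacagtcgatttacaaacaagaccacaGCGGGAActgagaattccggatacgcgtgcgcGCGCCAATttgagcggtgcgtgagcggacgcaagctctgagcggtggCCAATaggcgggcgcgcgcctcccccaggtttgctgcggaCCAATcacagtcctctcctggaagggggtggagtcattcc
The Mgmt run holds no match. The Bard1 run holds 1 E2F and 1 CHR match, the Brca1 run 1 CCAAT and the Ube2t run 2 E2F and 3 CCAAT matches, where 1 E2F match and 1 CCAAT share letters.

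Mgmt (ENSMUSG00000054612, chr7:136894614-137130266 on the plus strand of GRCm38) was the member with the clearest response to BU, and its level was lower. Summed over all passing cells it stood at 117 CPM in CTRL 1, 35.6 in BU 1, 79.1 in CTRL 2 and 32.7 in BU 2, UMIs scaled to a fixed library total, with TMM factors, from 2938, 728, 3066 and 1668 UMIs. Both BU libraries lay below both CTRL libraries. In Sox3+ cells the levels were 149, 43.8, 116 and 50.03 CPM, from 1597, 111, 2313 and 243 UMIs, and in Gfra1+ cells 78.9, 33.9, 51.4 and 35.4 CPM, from 259, 249, 213 and 654 UMIs. The groups did not overlap in either class, and the log2 ratio of BU over CTRL was -1.76 in experiment 1 and -1.21 in experiment 2 in Sox3+ cells, and -1.22 and -0.54 in Gfra1+ cells.

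**Figure D1:**
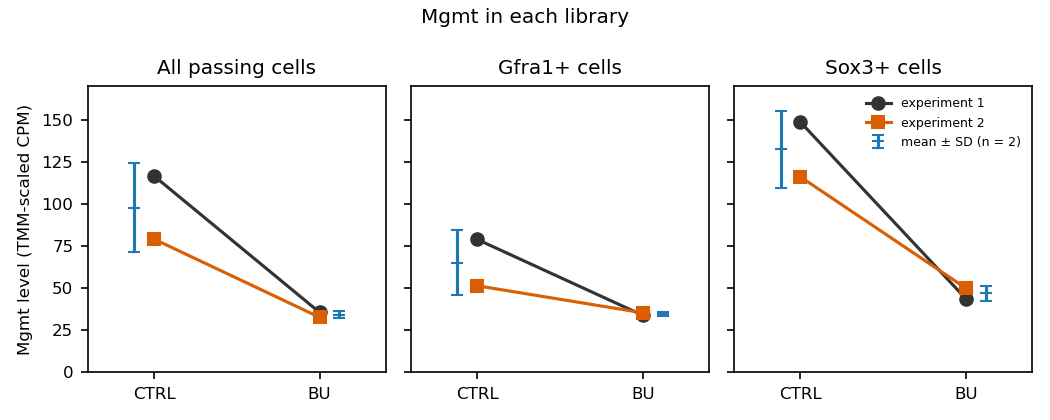
Mgmt level in TMM-scaled CPM (vertical axis, from 0) in CTRL and BU libraries for all passing, Gfra1+ and Sox3+ cells, with 1 line per experiment and bars for mean ± SD over 2 libraries. Every line is lower at BU than at CTRL, and the BU levels lie between 32.7 and 50.03 CPM.

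The call for Mgmt depended on the fit. By edgeR's quasi-likelihood test on CTRL against BU, with Benjamini-Hochberg adjustment over all genes tested, its log2 fold change was -1.50 ± 0.33 (SE) in all cells (adjusted p = 0.869), -1.40 ± 0.28 in Sox3+ cells (adjusted p = 0.456) and -0.96 ± 0.31 in Gfra1+ cells (adjusted p = 1). None of these passed 0.05. With the experiment as a replicate block, edgeR gave -1.47 ± 0.23 in all cells (adjusted p = 0.0355), -1.40 ± 0.25 in Sox3+ cells (adjusted p = 0.0183) and -0.93 ± 0.25 in Gfra1+ cells (adjusted p = 0.109). Mgmt thus passed in all and in Sox3+ cells under the block, where p-values rest on how well the differences of the experiments agree. In Sox3+ cells without the block it also passed by DESeq2 (adjusted p = 0.0201, where 0.155% of genes were called lower), by edgeR with no filter on low counts (adjusted p = 0.0101, 0.355%) and by edgeR without CTRL 2 (-1.62, adjusted p = 0.0155, 0.722%).

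Leaving out cells with shared barcodes changed the level of Mgmt little and the call in all cells. The levels in Sox3+ cells were then 150, 40.5, 117 and 49.4 CPM for CTRL 1, BU 1, CTRL 2 and BU 2, and the blocked edgeR fit gave -1.40 (adjusted p = 0.0046). BU 1 lost none of its Sox3+ cells, so the change in its level came from the scaling. In all cells the blocked value was -1.50 (adjusted p = 0.278), and in Gfra1+ cells -0.97 (adjusted p = 0.939). Spermatid transcripts were also lower in BU in both experiments, as given above. Between the CTRL libraries they went the other way from Mgmt in Gfra1+ and Sox3+ cells, with more in CTRL 2 than in CTRL 1. In the cells of experiment 2 with over 10% spermatid UMIs, the Mgmt level was 38.3 CPM for CTRL 2 and 40.7 for BU 2, against 47.7 and 18.4 over all passing cells of those libraries, with these 4 sums scaled together and so not on the scale above. With spermatogonial cells only, the blocked edgeR value was -1.37 in Sox3+ cells (adjusted p = 0.0165) and -1.59 in all cells (adjusted p = 0.119). That setting also drops cells without a UMI of Zbtb16 or Sall4, so the part of spermatid or somatic content alone was not tested.

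Mgmt was also lower in BU within each phase of the cell cycle. Among Gfra1+ cells called G1 (neither phase score over 0.05), CTRL 1 held 106 CPM against 61.5 for BU 1, and CTRL 2 held 59.7 against 36.3 for BU 2. In cells called S the pairs were 67.5 and 35.7, and 54.3 and 39.9, and in cells called G2/M 65.4 and 25.8, and 50.1 and 33.3. Every BU value was below the CTRL value of its experiment. With phases weighted alike in the 4 libraries, the mean log2 ratio of BU over CTRL for Mgmt was -0.76, against -0.88 without weighting.

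No gene passed an adjusted p of 0.05 in the unblocked edgeR test of BU against CTRL, in all cells (0% of 17354), Gfra1+ cells (0% of 12981) or Sox3+ cells (0% of 13533), and so no member did. At an unadjusted p under 0.05 there were 926, 448 and 1087 genes, and DESeq2 called 119, 4 and 49. The blocked fit called 258 genes (1.49%), 79 (0.609%) and 200 (1.48%). With shared barcodes left out it called 0, 0 and 206, and with spermatogonial cells only 0, 8 and 181. Mgmt was the only member among the genes of the blocked fit on every passing cell, in all cells (0.847% of genes lower) and in Sox3+ cells (0.554% lower). At an unadjusted p under 0.05 without the block, the members higher in BU were Usp1, Chek1 and Bard1 in all and in Sox3+ cells (2.64% and 4.08% of all genes) and Fancd2 in Gfra1+ cells (1.31%), and the member lower was Mgmt (2.69%, 3.95% and 2.14%). The Kit+ comparison could not be fitted, with 10 and 15 CTRL cells. With cells counted as Kit+ whatever the other 2 marker genes, it called 0 of 11028 genes (0%), and 115 with the block (1.04%), and no member in either. This wider set includes the Kit+ class. In that class 14 somatic markers summed to 20.3 CPM in CTRL 1, 4.30 in BU 1, 15817 in CTRL 2 and 8.62 in BU 2. The 9 spermatid markers summed to 516, 518, 19049 and 1131 CPM in that order. The part of such cells in this fit was not tested.

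More of the other members were higher than lower in BU, without any call in the test without the block or in that with it. In all cells, 25 of 41 members were higher in BU in both experiments, where 34.6% of all genes were, 7 were lower in both (30.4%), 19 had both BU libraries above both CTRL libraries (19.1%) and 4 both below (14.1%). In Gfra1+ cells, 40 members passed the filter on low counts and Fancb did not. Of these 40, 20 were higher in both experiments (35.1% of all genes), 16 had both BU above both CTRL (19.3%), and Mgmt alone had both below (13.2%). In Sox3+ cells the counts were 19 of 41 (24.9%), 14 (15.1%) and 5 below (23.2%), the 5 being Fancc, Fance, Ercc1, Chek2 and Mgmt. With shared barcodes left out, 13 of 41 members in all cells were higher in both experiments (24.6%), 9 had both BU above both CTRL (14.9%) and 5 both below (19.4%).

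Other settings of the fit called further members. Without cells over 3 times the median UMIs, the blocked edgeR fit called Bard1, Brca1, Chek1, Fancm and Usp1 higher in all cells (4.4% of genes higher) and these 5 with Mad2l2 in Sox3+ cells (2.91%), with Mgmt lower in both (7.03% and 1.8%). With a mitochondrial share under 10%, the block called Brca1 and Chek1 higher in Gfra1+ cells (1.33%) and Mgmt lower in Gfra1+ (1.34%) and in Sox3+ cells (0.351%). With cells above the level whatever the other marker genes, the block called Bard1, Chek1 and Mad2l2 higher (2.55%) and Mgmt lower (3.07%) in Sox3+ cells. Without CTRL 2 and without a block, Brca1, Fancm, Rad51b and Rev3l were called higher in Sox3+ cells (1.63%).

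By role, the FANCD2 and FANCI pair with its deubiquitinase stood highest in Gfra1+ cells. Fancd2 (ENSMUSG00000034023, chr6:113531682-113597017), the monoubiquitinated subunit, was at 15.5 CPM in CTRL 1, 32.4 in BU 1, 17.9 in CTRL 2 and 27.6 in BU 2, so that both BU libraries exceeded both CTRL libraries. Its edgeR log2 fold change was 0.78 ± 0.29 (adjusted p = 1). Its partner Fanci was at 7.01, 11.8, 9.17 and 11.4 CPM in the same order, and Usp1, which reverses the modification, at 65.5, 157, 112 and 127 CPM. Without the cells of shared barcodes, Fancd2 was at 15.2, 30.7, 15.5 and 17.3 CPM, still without overlap, while Fanci at 6.97, 11.3, 8.50 and 7.88 and Usp1 at 64.9, 149, 101 and 86.0 overlapped. With all passing cells the 3 genes had both BU libraries above both CTRL libraries in Gfra1+ cells, where 19.3% of all genes did. In Sox3+ cells Fancd2 was at 18.4, 36.7, 22.2 and 19.8 CPM and was slightly lower in BU 2 than in CTRL 2.

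The core complex acts before this pair, and its subunits had values on both sides of 0. Fancc, a core subunit, was lower in BU in both experiments, at 19.4, 10.6, 14.9 and 8.23 CPM in Sox3+ cells (CTRL 1, BU 1, CTRL 2 and BU 2), where the groups did not overlap (edgeR log2 fold change -0.78 ± 0.36, adjusted p = 0.662). In Gfra1+ cells it was at 17.1, 11.6, 8.69 and 8.01 CPM, where they did overlap. Fancg, another core subunit, was at 21.0, 16.9, 8.93 and 8.55 CPM in Gfra1+ cells, and its levels differed more between experiments than between CTRL and BU. Ube2t, the E2 enzyme, was at 116, 132, 101 and 126 CPM in Gfra1+ cells, with both BU libraries above both CTRL libraries, but at 114, 126, 100.5 and 99.0 CPM with shared barcodes left out, where they overlapped. Fancc in Sox3+ cells was then at 19.5, 9.84, 14.3 and 9.80 CPM, without overlap. Of the 8 core genes tested in Gfra1+ cells, 4 were higher (35.1% of all genes) and 2 lower (24.8%) in both experiments, and fitted log2 values ran from -0.45 to 0.59.

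The largest positive fitted value was that of Chek1 in Gfra1+ cells and that of Bard1 in Sox3+ cells. The 4 checkpoint kinases did not move together, with fitted log2 values from -0.18 to 0.84 in Gfra1+ cells and from -0.36 to 1.00 in Sox3+ cells. Their median log2 ratio in experiment 2 was 0.04 in Gfra1+ and -0.14 in Sox3+ cells. Chek1 (ENSMUSG00000032113, chr9:36708482-36727065), the kinase activated by ATR at stalled forks, was at 19.8 CPM in CTRL 1, 56.0 in BU 1, 40.1 in CTRL 2 and 56.5 in BU 2 in Gfra1+ cells (log2 fold change 0.84 ± 0.40), and at 15.3, 36.3, 26.7 and 43.4 CPM in Sox3+ cells (1.00 ± 0.38). Both BU libraries were above both CTRL libraries in each class. Bard1, the partner of BRCA1 in a ubiquitin ligase, was at 17.5, 41.4, 18.7 and 29.6 CPM in Sox3+ cells (log2 fold change 1.05 ± 0.33) and at 26.2, 49.8, 26.6 and 34.1 CPM in Gfra1+ cells, again without overlap. Brca1 was at 16.1, 57.3, 50.7 and 61.5 CPM in Gfra1+ cells (log2 fold change 0.76 ± 0.55), where the ratio was 1.83 log2 units in experiment 1 and 0.28 in experiment 2. Xrcc3, a homologous recombination gene, went the other way in Sox3+ cells, at 9.77, 8.28, 5.47 and 2.68 CPM (log2 fold change -0.45 ± 0.59, from as few as 13 UMIs in BU 2), and the groups overlapped. None of these passed in the edgeR fit of all passing cells, with or without the block. Chek1 still did not overlap with shared barcodes left out, at 19.4, 52.8, 35.8 and 46.5 CPM in Gfra1+ and 15.4, 33.5, 24.1 and 35.1 CPM in Sox3+ cells, and nor did Bard1 in Sox3+ cells, at 17.6, 38.3, 17.5 and 22.5 CPM. Bard1 in Gfra1+ cells was then at 25.8, 47.2, 24.0 and 24.4 CPM and Brca1 at 16.1, 54.3, 50.1 and 45.8 CPM, both with overlap.

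Among the translesion genes, Mad2l2, a subunit of polymerase zeta, was higher in BU in both experiments in Sox3+ cells, at 19.6 and 35.9 CPM in experiment 1 and 9.19 and 18.5 in experiment 2 (log2 fold change 1.00 ± 0.49). The levels of the experiments differed by as much, so the groups overlapped. Rev3l, the catalytic subunit of the same polymerase, was at 17.1, 49.4, 74.8 and 49.97 CPM in Gfra1+ cells and moved in opposite directions in the experiments. Of the 6 nucleases, Mus81 alone was higher in both experiments in Gfra1+ cells (35.1% of all genes), at 6.40, 7.22, 6.04 and 9.42 CPM. Of the end-processing genes, Exo1 was at 38.7, 78.8, 39.4 and 50.9 CPM with no overlap. Once shared barcodes were left out, Mus81 was at 6.37, 6.89, 4.86 and 9.85 CPM and Exo1 at 38.5, 75.1, 34.6 and 38.1 CPM, where Exo1 overlapped.

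The experiments differed in how far the members moved. In all cells, 31 of 41 members were higher in BU in experiment 1 (47.2% of all genes) and 28 in experiment 2 (56.8%). In Gfra1+ cells these counts were 30 of 40 (53.6%) and 26 (56.6%), and in Sox3+ cells 32 of 41 (44.9%) and 21 (43.1%). The median log2 ratio of BU over CTRL over the 40 members in Gfra1+ cells was 0.67 in experiment 1 and 0.05 in experiment 2, where all genes had 0.05 and 0.06. In Sox3+ cells it was 0.72 and 0.05 over 41 members, where all genes had -0.08 and -0.07. With shared barcodes left out, the experiment 2 medians became -0.10 in both classes, where all genes had -0.01 in Gfra1+ and -0.13 in Sox3+ cells, and -0.15 in all cells, where all genes had -0.02 and 16 of 41 members were higher (48.3% of all genes). The count of members with both BU above both CTRL in Gfra1+ cells then fell to 8 of 40 (11.7% of all genes), and the count higher in both experiments to 11 (23.9%). In Sox3+ cells these counts became 9 (10.7%) and 13 (16.7%) of 41. CTRL 1 lay below the other 3 libraries for 23 of 41 members in all cells (28.7% of all genes), 23 of 40 members in Gfra1+ cells (34.8% of all genes) and 25 of 41 in Sox3+ cells (27.5%). The median of the fitted log2 values in Gfra1+ cells was 0.27 over the members and -0.01 over all genes.

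**Figure D2:**
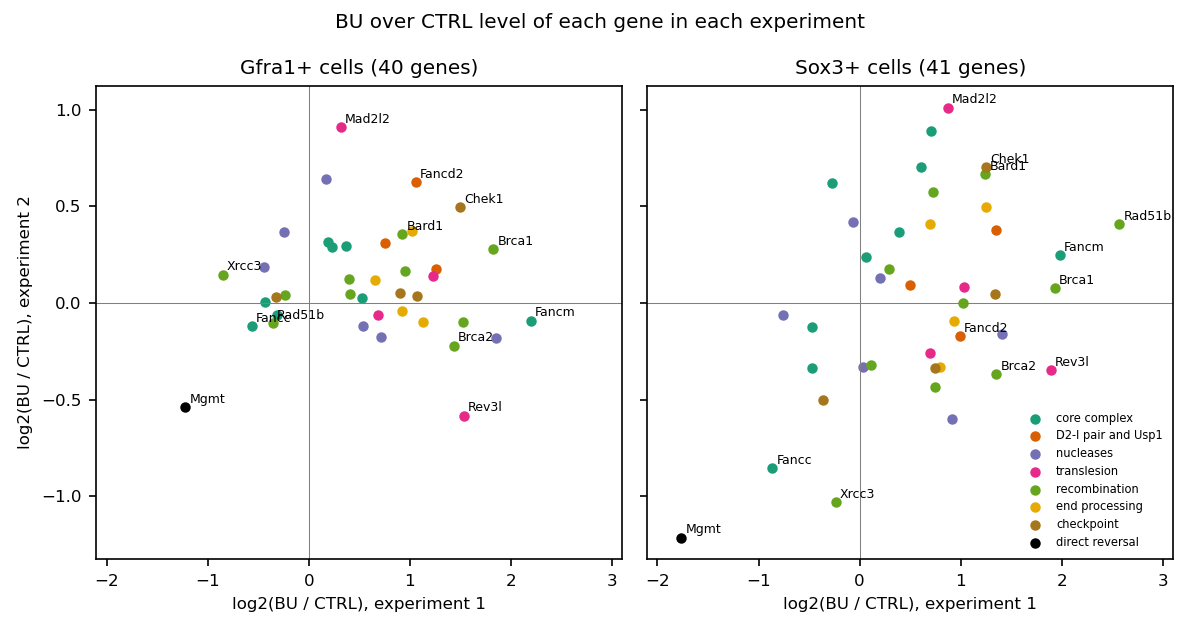
Each point is 1 gene, placed by its log2 ratio of BU over CTRL in experiment 1 (horizontal) and experiment 2 (vertical), in Gfra1+ and Sox3+ cells, with colours for roles. Points spread to the right of 0 more than above it, and Mgmt sits at the lower left in both panels.

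The shift in experiment 1 went with the length of the transcript. Across 40 members in Gfra1+ cells, Spearman's rho between the log2 ratio and the longest annotated transcript was 0.74 in experiment 1 and -0.24 in experiment 2, and across all genes tested 0.30 and -0.13. For CTRL 1 over CTRL 2 it was -0.62 over the members and -0.25 over all genes. With shared barcodes left out, these values over the members were 0.73, -0.46 and -0.58, and over all genes 0.30, -0.29 and -0.26. Genes are not independent replicates, the points share libraries, and the values are given as a description. Fancm, a translocase of 7816 bases, went from 6.70 CPM in CTRL 1 to 30.8 in BU 1 and from 30.9 in CTRL 2 to 29.0 in BU 2. Brca2, a mediator of homologous recombination, went from 79.2 to 215 and from 176 to 151 CPM. For long transcripts such as these, CTRL 1 was the library that stood apart.

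**Figure D3:**
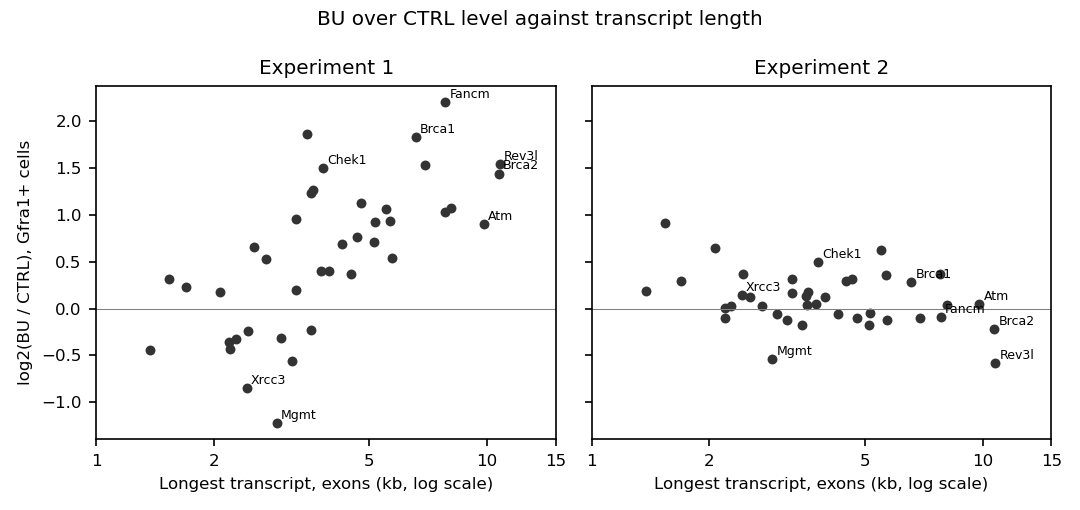
Log2 ratio of BU over CTRL in Gfra1+ cells (vertical) against the length of the longest transcript in kb (horizontal, log scale), in experiment 1 and experiment 2, with 1 point per gene. In experiment 1 long transcripts such as Fancm and Brca1 lie above 1, and in experiment 2 most points lie near 0.

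Classes of cells were compared within libraries, with the library as a block in edgeR. Of 13347 genes, 4930 differed between Gfra1+ and Sox3+ cells (36.9%), with 18.9% higher and 18% lower in Gfra1+ cells. Of the 41 members 4 were higher and 5 lower in Gfra1+ cells. The 4 were Chek1 (log2 fold change 0.51 ± 0.10, adjusted p = 0.00084), Fancl, the ubiquitin ligase of the core complex (0.44), Bard1 (0.40) and Rad18, which ubiquitinates PCNA for translesion synthesis (0.28). The 5 were Mgmt (-0.74 ± 0.12, adjusted p = 0.00017), Fancg (-0.48), Fance (-0.46), Rad50 (-0.43) and Ercc1 (-0.40), a subunit of the XPF nuclease. Chek1 stood at 19.8 and 15.3 CPM in Gfra1+ and Sox3+ cells of CTRL 1, at 56.0 and 36.3 in BU 1, at 40.1 and 26.7 in CTRL 2 and at 56.5 and 43.4 in BU 2, so that Gfra1+ cells were higher in all 4 libraries.

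Mgmt had the reverse order and was lower in Gfra1+ than in Sox3+ cells of each library. In experiment 1 Gfra1+ cells held 78.9 CPM to the 149 of Sox3+ cells for CTRL, and 33.9 to 43.8 for BU. In experiment 2 the pairs were 51.4 to 116 for CTRL and 35.4 to 50.03 for BU. The BU libraries also held a larger share of Gfra1+ cells, and its part in the level over all cells was not tested. Sox3+ cells of the BU libraries had a lower sum of progenitor markers, and its part in their Mgmt level was not tested. The difference between the BU effects of the classes was 0.51 ± 0.18 log2 units for Mgmt (adjusted p = 0.215), and this test called 174 genes (1.3%) and no member.

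Kit+ cells, with at least 20 cells only in BU 1 and BU 2, had higher levels of 11 members in the comparison with each of the other classes, not all of them shared. Against Sox3+ cells, 3482 of 13347 genes differed (26.1%), 11.9% higher and 14.2% lower, and 11 of 41 members were higher and 2 lower. The higher members were Slx4 (1.02), Mad2l2 (0.83), Bard1 (0.76), Fancd2 (0.71), Atm (0.70), Usp1 (0.69), Nbn (0.63), Brca1 (0.60), Rev3l (0.47), Blm (0.41) and Atr (0.40), in log2 fold change, and the lower ones Mgmt (-1.01) and Ercc1 (-0.71). Against Gfra1+ cells, 5204 genes differed (39%), 18.5% higher and 20.5% lower, and 11 members were higher and 1, Fancl (-0.81), lower. Mad2l2 (1.16 ± 0.19, adjusted p = 0.00022), Atm (0.93) and Slx4 (0.91, and -0.027 without BU 2) led, followed by Fancd2 (0.74), Rev3l (0.68), Fance (0.57), Brca1 (0.47), Usp1 (0.45), Atr (0.44), Rad50 (0.40) and Exo1 (0.38). Atm, the kinase of double-strand breaks, was at 68.8 CPM in Kit+ and 43.3 in Gfra1+ cells of BU 1, and at 99.97 and 52.2 in BU 2.

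These class calls rest on the pairing of classes within libraries. Without the library block no member was called in any of the 3 comparisons, in the order above (8.36%, 4.78% and 12.9% of all genes). Without BU 2, Kit+ against Sox3+ held no called member, at 544 genes called (3.99%), and Kit+ against Gfra1+ held 2 higher (5.76%) and 1 lower (8.5%). With shared barcodes left out, 4 members were higher (16.2% of all genes) and 5 lower (15.4%) in Gfra1+ against Sox3+ cells, 7 (8.25%) and 2 (12%) in Kit+ against Sox3+, and 7 (15.3%) and 1 (19.1%) in Kit+ against Gfra1+. Few Kit+ cells were called G1, with a share of 0.667% in BU 1 and 0 of 52 in BU 2, against 2.53% and 10.4% of Gfra1+ cells and 5.42% and 9.68% of Sox3+ cells. The part of this in the class differences was not tested.

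**Figure D4:**
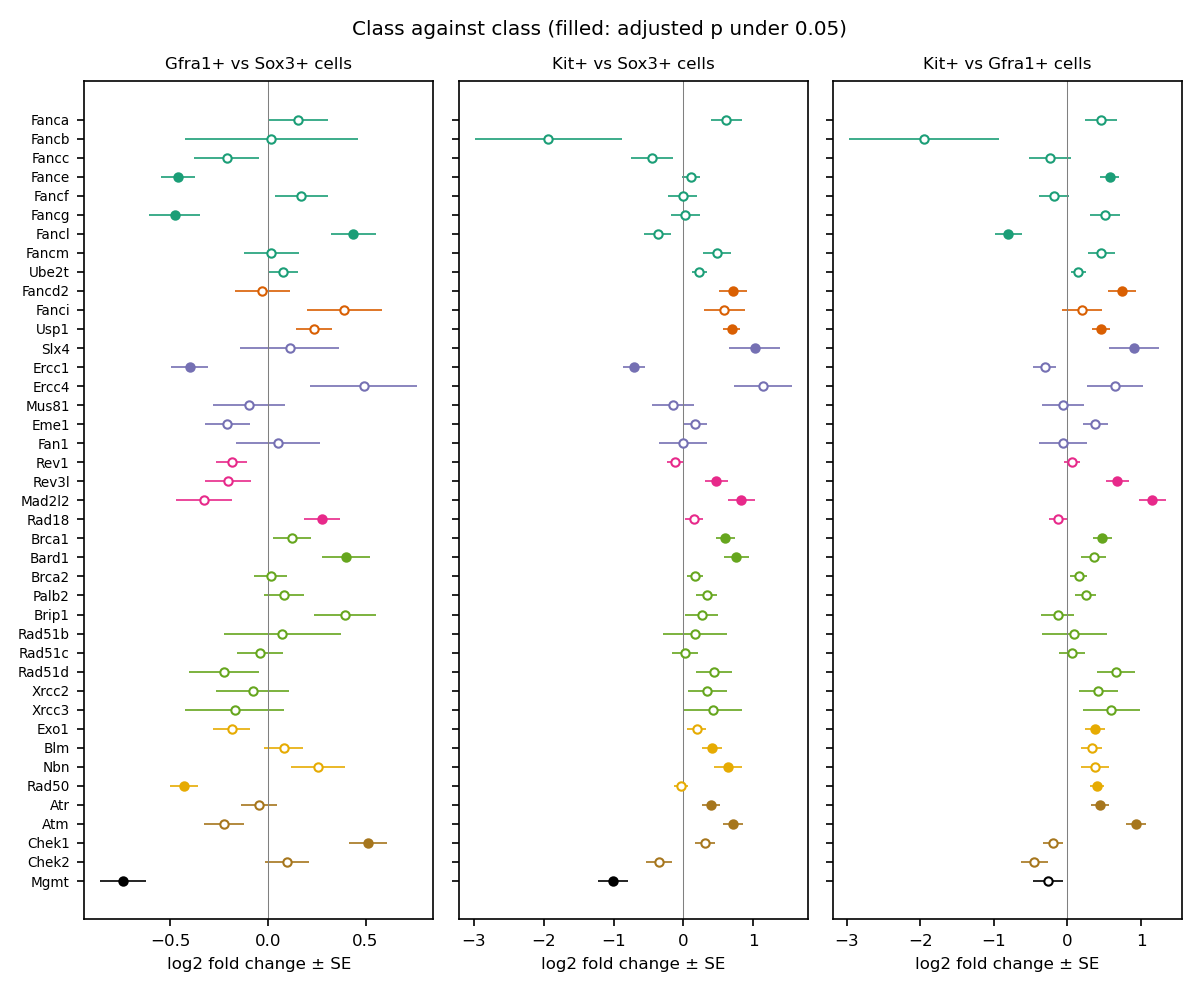
Log2 fold change ± SE of each of the 41 genes between classes of cells (horizontal), from edgeR with the library as a block, with filled points for an adjusted p under 0.05 and colours for roles as in the plot of both experiments. Mgmt lies lowest in the Gfra1+ against Sox3+ panel, and Mad2l2 highest in the Kit+ against Gfra1+ panel.

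Phase of the cell cycle was called from lists of 35 S and 52 G2/M genes, none of them a member. In all passing cells, 27 of 41 members were higher in cells called S than in cells called G1 in all 4 libraries (27.8% of all genes) and 3 were lower, Ercc4, Mus81 and Mad2l2 (20.1%). In G2/M against G1 the counts were 25 (25.6%) and 2 (18.4%). In experiment 2 the cells called G1 also held 4.79% and 4.69% spermatid UMIs in CTRL 2 and BU 2, against 0.27% and 0.24% in S. The part of these transcripts in that comparison was not tested.

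In Gfra1+ cells, with phase scores over 0.05, 19 of the 40 members tested were higher in S than in G1 in all 4 libraries (19.9% of all genes) and 0 were lower (10.3%). Exo1, a resection nuclease, was at 19.3 CPM in G1 and 46.3 in S of CTRL 1, at 22.0 and 93.4 in BU 1, at 12.5 and 61.6 in CTRL 2 and at 11.3 and 63.8 in BU 2, a median ratio of 4.59. The median ratio was 3.80 for Fancd2, 3.37 for Chek1, 3.32 for Brip1, 3.00 for Brca1 and 0.773 for Mgmt. G1 levels rested on few UMIs, and that of Fancd2 in BU 1 was 2.20 CPM. With phases called at a score of 0, S and G2/M Gfra1+ cells gave no call in BU against CTRL without the block (0% of 11647 and 0% of 10475 genes), and no member was called in them with it (1.18% and 0.21%). At 0.05 the block called 0% of 11358 genes in S and 0.0871% of 10329 in G2/M cells, with no member. In G1 cells, called at 0.05, the unblocked fit called 0% of 9519 genes and the blocked one 0.063%, again with no member.

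**Figure D5:**
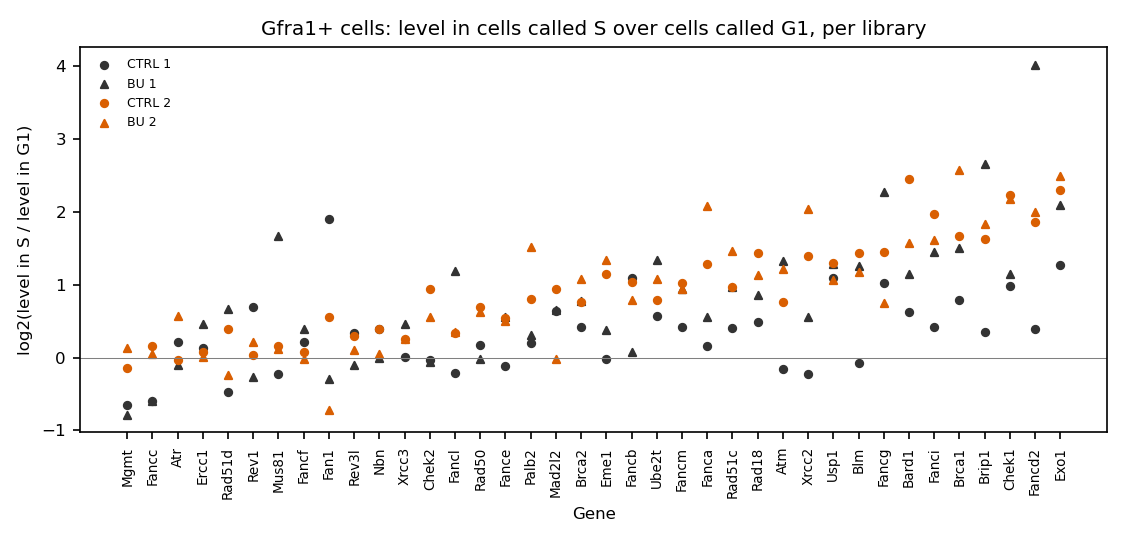
Log2 ratio of the level in cells called S over cells called G1 (vertical) for each gene with a count above 0 in both phases of every library, in Gfra1+ cells, with 1 point per library. Exo1, Fancd2 and Chek1 stand at the right with every library above 0, and Mgmt at the left.

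The mix of phases differed between the groups and was therefore held equal. In Gfra1+ cells the share called G1 was 6.80 percentage points lower in BU, that called S 2.76 points lower and that called G2/M 9.56 points higher, as means over 2 libraries with phases called at a score of 0. The S share was 65.1% in CTRL 1, 66.1% in BU 1, 51.9% in CTRL 2 and 45.5% in BU 2, so its direction differed between experiments. In that order the G1 shares were 10.3%, 2.53%, 16.3% and 10.4%, and those of G2/M 24.6%, 31.4%, 31.8% and 44.1%. With scores over 0.05 the changes were -20.8 points for G1, 6.34 for S and 14.4 for G2/M, so that S changed sign, as it did unthinned (2.10). An exact permutation test with 2 libraries against 2 cannot go below p = 0.33, so these are descriptions. With the 4 libraries given the same phase weights, the mean shares at 0.05 of 21.7% G1, 49.5% S and 28.8% G2/M, the median over 40 members of the mean log2 ratio of BU over CTRL was 0.33, against 0.40 unweighted, and 31 of 40 members moved nearer to 0. The weighted median was 0.58 in experiment 1 and -0.05 in experiment 2.

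Of 41 members, 33 matched a RefSeq promoter. Letters of an E2F site were present upstream of 11 of the 33 members, CCAAT upstream of 17 and the CHR letters upstream of 2. The 33 members had 38 promoters, with 2 for each of 5 members. Counted by promoter, E2F letters were in 11 of 38 and in 6.69% of all 32851 promoters. CCAAT was in 18 of 38 and in 33.8%, and the CHR letters in 2 of 38 and in 17.1%. Bard1, Brca2, Chek2, Ercc1, Fancb, Fancf, Fancg, Fancm, Mad2l2, Rad51c and Ube2t held the E2F letters. Of the members with the largest ratios of S over G1, Chek1 held none of the 3 motifs in this window, Brca1 and Brip1 held CCAAT, and Exo1 and Fancd2 had no entry. A match is a string of letters and not a bound site.

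Other genes of the pathway were read from 3 further lists. Of 32 crosslink and recombination partners, 17 checkpoint partners and 14 other repair genes, none passed the unblocked test of BU against CTRL. With the experiment as a block, edgeR called Faap20, a core complex subunit, lower in all cells (-1.64, adjusted p = 0.0289) and in Sox3+ cells (-1.15, adjusted p = 0.0328). By the same edgeR fit Rmi2, of the BLM complex, was called higher in Sox3+ cells (2.05, adjusted p = 0.0239). The blocked fit called 1.49% of all genes in all cells and 1.48% in Sox3+ cells. In all cells it called no gene with shared barcodes left out or with spermatogonial cells only, so Faap20 was not called there. For Sox3+ cells these refits are not given for the 3 lists. Between Gfra1+ and Sox3+ cells, 3 partners were higher and 6 lower, 5 checkpoint partners were higher and none lower, and 2 other repair genes were higher. Of all genes, 18.9% were higher and 18% lower. Rad54b, a recombination helicase relative, was higher in Gfra1+ cells (0.37), while Faap20 (-1.45) and Polq (-1.11), the polymerase of end joining, were lower. In Kit+ against Sox3+ cells the counts of the 32 partners were 5 higher (11.9% of all genes) and 1 lower (14.2%). In Kit+ against Gfra1+ cells they were 7 higher (18.5%) and 0 lower (20.5%).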

How the data were processed

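Single-cell RNA-seq libraries of sorted A_undiff were analysed from the deposited matrices of UMI counts, which the authors made with Cell Ranger 3.0.2 (as the file headers give it) and mm10 per the methods, while the submitters' processing notes name GRCm39 and Seurat 3.2. The labels give chemistry V2 for experiment 1 and V3.1 for experiment 2, and the methods V2 for both. Cells were kept at over 1000 genes detected with a mitochondrial share below 20%, raw counts were summed per library and class (at least 20 cells each) and tested with edgeR 4.0.16 (quasi-likelihood, TMM, filterByExpr, R 4.3.3), with DESeq2 1.42.0 as an alternative. BU against CTRL was fitted without a block. CTRL and BU of the same number were made in the same experiment, and deviations from the group means correlated between samples of the same number (0.779 over all cells, 0.671 Gfra1+, 0.519 Sox3+), so a result that changed when the experiment entered as a replicate block has both values. Classes were compared with the library as a block.

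Phase was scored with scanpy 1.11.5 after each cell was thinned to 5000 UMIs, leaving out shallower cells (276 cells in CTRL 1, 80 in BU 1, 114 in CTRL 2 and 95 in BU 2), and a cell was G1 where both scores were at or under 0, or 0.05 for levels within Gfra1+ cells, chosen because BU 1 had 18 Gfra1+ G1 cells at 0. No doublet caller was run, and cells over 3 times the median UMIs were left out as an alternative. The members and lists were chosen with earlier results of these data known. Genes printed with all values are those past the threshold in any test or block fit and, per class, the 3 largest rises and falls in BU among members moving the same way in both experiments, plus, chosen after their values were seen, Fanci, Usp1, Ube2t, Rev3l, Mus81, Exo1, Fancm and Brca2. Libraries are pools of mice, and p-values of the unblocked test of BU against CTRL measure the spread between 2 pools a group. With the experiment as a block, they measure how well the 2 paired differences agree. P-values of the class comparisons measure how well differences within libraries agree, and for Kit+ cells only BU 1 and BU 2 entered. On simulated counts with an experiment effect, the share of changed genes recovered without the block was 0% in all cells (17234 genes), 22% in Gfra1+ (12991) and 54.5% in Sox3+ cells (13476). With the block it was 99.5%, 100% and 99.5%, where 5.24%, 0.99% and 6.13% of the calls were false. The changes put in were larger than the fitted log2 values of all members in BU against CTRL. They were placed in genes above a count floor, with the same dispersion for every gene. The experiment effect put in was the same for CTRL and BU, which is the form that the block assumes. The rates with the block therefore do not measure how reliable its calls in these data are. In the data, the ratios of BU over CTRL differed between the experiments, and false calls under such a difference were not tested. Recovery of changes as small as those of the members was not tested. One gene of the partner list is not reported here by name. Depth per library and alternatives are given in the text.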

Additional observations from a re-analysis of the deposited data

Results flagged for a closer look

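One gene stood out between the classes. Rad51b, a homologous recombination gene, had a BU over CTRL log2 ratio of -0.35 in experiment 1 and -0.10 in experiment 2 in Gfra1+ cells, and 2.57 and 0.41 in Sox3+ cells, so that both experiments went one way in one class and the other way in the other. The difference between the effects by edgeR was -0.97 ± 0.52 (SE, adjusted p = 0.459), which did not pass. It rested on 4, 7, 39 and 162 UMIs in Gfra1+ cells and 5, 7, 142 and 46 in Sox3+ cells of CTRL 1, BU 1, CTRL 2 and BU 2. The level of Rad51b was under 3 CPM in every class sum of experiment 1 and over 7 CPM in those of experiment 2, whose gene lists differ.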

How the results depend on the processing

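Counts of genes called in BU against CTRL moved with the settings. Under a replicate block for the experiment they were 258 in all cells, 79 in Gfra1+, 200 in Sox3+, 138 in Gfra1+ S and 22 in Gfra1+ G2/M cells, by DESeq2 119, 4, 49, 52 and 2, and with no filter on low counts 25 in Gfra1+, 185 in Sox3+, 157 in S and 8 in G2/M cells, against 0 in each. Leaving out 1 library gave 0 to 96 in all cells, 0 to 5 in Gfra1+, 1 to 309 in Sox3+, 0 to 12 in S and 0 to 11 in G2/M cells. The block with the mitochondrial share under 10% gave 110, 345 and 134 in all, Gfra1+ and Sox3+ cells, with spermatogonial cells only 0 in all, 8 in Gfra1+ and 181 in Sox3+, without cells over 3 times the median UMIs 1942, 5 and 632, without shared barcodes 0 in all, 0 in Gfra1+ and 206 in Sox3+, with cells above the level whatever the other genes 9 in Gfra1+ and 812 in Sox3+, and with phase scores over 0.05 9 in G2/M cells. Several of these settings called members beside Mgmt, as given in the text.

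Class comparisons without the replicate block gave 1116 genes for Gfra1+ against Sox3+, 638 for Kit+ against Sox3+ and 1720 for Kit+ against Gfra1+, and 0 for the difference between BU effects. Leaving out 1 library gave 3701 to 4227, 544 to 3483, 1944 to 5597 and 34 to 286. Classes from any UMI after thinning gave 2883, 720 and, for the difference, 1. The difference was 105 by DESeq2, 369 with no filter, 331 with spermatogonial cells only, 85 without cells over 3 times the median UMIs and 9 without shared barcodes.

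The share of G1 changed by -20.8 points with scores over 0.05 and by -14.6 unthinned, and that of S by 6.34 and 2.10. Over 47 named results and 652 values, 514 kept direction and call, 112 lost the call, 20 gained it and 6 reversed: Fancc in Gfra1+ without CTRL 1 (0.12, range over left-out libraries -0.84 to 0.12), Fancg in Gfra1+ without CTRL 1 (0.45), without BU 2 (0.12) and with any UMI (0.10, range -0.84 to 0.45), Xrcc3 in Sox3+ without BU 2 (0.21, range -1.45 to 0.21), and Slx4 in Kit+ against Gfra1+ without BU 2 (-0.027, range -0.027 to 1.30). The median over the members in Gfra1+ cells was 0.13 to 0.63 when 1 library was left out. The cause was not tested. The Kit+ and Gfra1+ G1 fits of BU against CTRL could not be fitted with under 20 cells in a library. UMIs limit the rarest members most, such as Rad51b and Fancb.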
